A study of Mus musculus with 9 samples.

Results

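The 6 genes described here encode mouse transcription factors of the MADS box family and a partner of one of them: the MEF2 factors Mef2a, Mef2b, Mef2c and Mef2d, the serum response factor Srf, and myocardin (Myocd), a coactivator of SRF. Their probe sets were those whose single annotated gene symbol was one of these names, 19 of 45037 probe sets on the array, or 6 of 18193 genes. The genes were chosen by the signal of Mef2c, which had been seen to be higher on hypoxic than on normoxic arrays, so the hypoxic against normoxic values of Mef2c are given below as a description with no test. Of the 19 probe sets, 17 from 5 genes were brighter than the dimmest 40% of the array and entered the fits. Mef2b had 1 probe set, which did not pass.

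RNA came from whole right lung of C57/BL6 (called BL6), FVB/N and SV129 mice, and each array was read out as 1 linear signal per probe set. Hypoxic mice had spent 4 weeks in hypobaric hypoxia at 50 kPa (2 arrays for each of the 3 strains), and normoxic mice 4 weeks at 85 kPa (1 array per strain), the ambient pressure at Denver's altitude, so the normoxic animals were not at sea level. All 9 arrays are from mice with no labelled genetic change, and ages and sexes were not given in the sources used here. Precision is limited by the number of arrays. Nothing in the labels ties each array to its own animal, and the p-values below therefore describe the spread among these samples only, part or all of which may be technical.

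MEF2 factors and SRF bind short AT-rich DNA elements next to muscle, cytoskeletal and signal-responsive genes. MEF2 factors are held inactive by class II histone deacetylases and released by calcium and kinase signalling, and in endothelium they drive Klf2 and related genes. SRF binds the CArG box and works with myocardin-related factors, which follow the actin cytoskeleton and drive smooth muscle genes, or with ternary complex factors, which follow MAP kinase signalling and drive immediate early genes. In whole lung these factors are known from endothelium, smooth muscle and leukocytes. Fewer cells of a type and less RNA per cell cannot be told apart in such a sample.

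The promoter windows of Srf, Mef2a and Mef2c are shown because they differ in whether they hold the family's own binding elements. Each window runs from 250 bases before to 50 bases after a RefSeq start site in GRCm38.p6, 5′ to 3′ on the gene's own strand, and capitals mark 10-base matches to the CArG box or the MEF2 site, searched on both strands. The windows lie at chr17:46556113-46556412 (minus strand) for Srf, chr7:67372809-67373108 (minus strand) for Mef2a, and chr13:83503784-83504083 (plus strand) for the first of 3 Mef2c start sites.
Srf: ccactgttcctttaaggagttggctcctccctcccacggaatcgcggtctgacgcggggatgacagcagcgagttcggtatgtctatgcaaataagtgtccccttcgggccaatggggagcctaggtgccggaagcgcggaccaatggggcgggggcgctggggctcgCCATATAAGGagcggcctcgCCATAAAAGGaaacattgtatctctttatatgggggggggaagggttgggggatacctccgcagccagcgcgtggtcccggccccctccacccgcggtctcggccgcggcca
Mef2a: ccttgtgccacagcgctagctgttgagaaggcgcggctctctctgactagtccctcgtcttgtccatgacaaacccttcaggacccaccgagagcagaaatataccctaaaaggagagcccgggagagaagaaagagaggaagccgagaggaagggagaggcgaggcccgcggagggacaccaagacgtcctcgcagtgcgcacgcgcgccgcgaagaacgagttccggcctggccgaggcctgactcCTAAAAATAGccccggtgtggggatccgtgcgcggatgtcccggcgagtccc
Mef2c: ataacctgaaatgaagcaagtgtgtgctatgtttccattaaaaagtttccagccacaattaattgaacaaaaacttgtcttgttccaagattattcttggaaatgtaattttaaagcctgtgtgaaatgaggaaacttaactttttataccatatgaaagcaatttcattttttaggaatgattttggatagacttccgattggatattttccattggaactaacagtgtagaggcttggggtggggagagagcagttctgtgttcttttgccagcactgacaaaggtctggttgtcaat

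The Srf window held 2 CArG boxes, CCATATAAGG starting at position -82 and CCATAAAAGG at position -62 relative to the start site. The Mef2a window held 1 MEF2 site, CTAAAAATAG, whose first base was at position -2. No match was found in the 3 windows of Mef2c or in the single windows of Mef2b and Mef2d, and none of the matches overlapped another. Among all 32851 mouse windows of this length, 535 (1.63%) held a CArG box, 6 (0.0183%) held 2 or more, and 1047 (3.19%) held a MEF2 site. These matches describe letters in a window and do not show binding, and 5 of the 6 genes had a window in the table (Myocd did not).

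Mef2c, the MEF2 factor best known from heart, endothelium and B cells, was higher in hypoxic lung of every strain on 3 of its 5 probe sets. The brightest, 1421027_a_at, read 1735 and 1704 units in hypoxic BL6, 2103 and 2123 in hypoxic FVB/N, and 1585 and 1856 in hypoxic SV129 lung, against 822 in normoxic BL6, 602 in normoxic FVB/N and 617 in normoxic SV129 lung. The lowest hypoxic array was thus above the highest normoxic array. On the log2(signal + 16) scale after quantile normalization it averaged 10.85 ± 0.163 in hypoxic lung and 9.44 ± 0.228 in normoxic lung (SD, n = 6 and 3). The difference between hypoxic and normoxic lung, with strain in the fit, was 1.41 ± 0.149 (SE), or 2.65-fold. In order of level, hypoxic FVB/N stood first, hypoxic BL6 and hypoxic SV129 overlapped below it, and the 3 normoxic arrays came last.

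The second alternative-transcript probe set of Mef2c behaved alike. Probe set 1421028_a_at read 775 and 742 units in hypoxic BL6, 709 and 976 in hypoxic FVB/N, and 413 and 515 in hypoxic SV129 lung, against 399, 308 and 199 units in normoxic BL6, FVB/N and SV129 lung. The groups did not overlap, although hypoxic SV129 array 2 lay only just above normoxic BL6, and the difference was 1.16 ± 0.165 on the log2 scale. Another probe set, 1424852_at, gave a smaller difference of 0.43 ± 0.123 without overlap, at 1324 to 1586 units in hypoxic lung against 993 to 1059 units in normoxic lung.

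The other Mef2c probe sets did not separate the pressures. Probe set 1451506_at read 360 to 986 units in hypoxic lung and 441 to 620 units in normoxic lung (log2 difference 0.16 ± 0.265). Probe set 1451507_at read 279 to 492 units in hypoxic lung and 363 to 436 units in normoxic lung (log2 difference -0.13 ± 0.171). Averaged over all 5 probe sets, the log2 difference of Mef2c was 0.60 ± 0.140. Over the 9 arrays, 1421027_a_at correlated with 1424852_at at r = 0.94 and with 1421028_a_at at r = 0.88, but with 1451506_at at r = 0.30 and with 1451507_at at r = -0.18. These points share the split by pressure, so the correlations are given as a description. Across all 27022 probe sets tested with limma, 525 (1.94%) were higher in hypoxic lung at a Benjamini-Hochberg adjusted p below 0.05, and 1765 (6.53%) had all 6 hypoxic arrays above all 3 normoxic arrays.

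**Figure D1:**
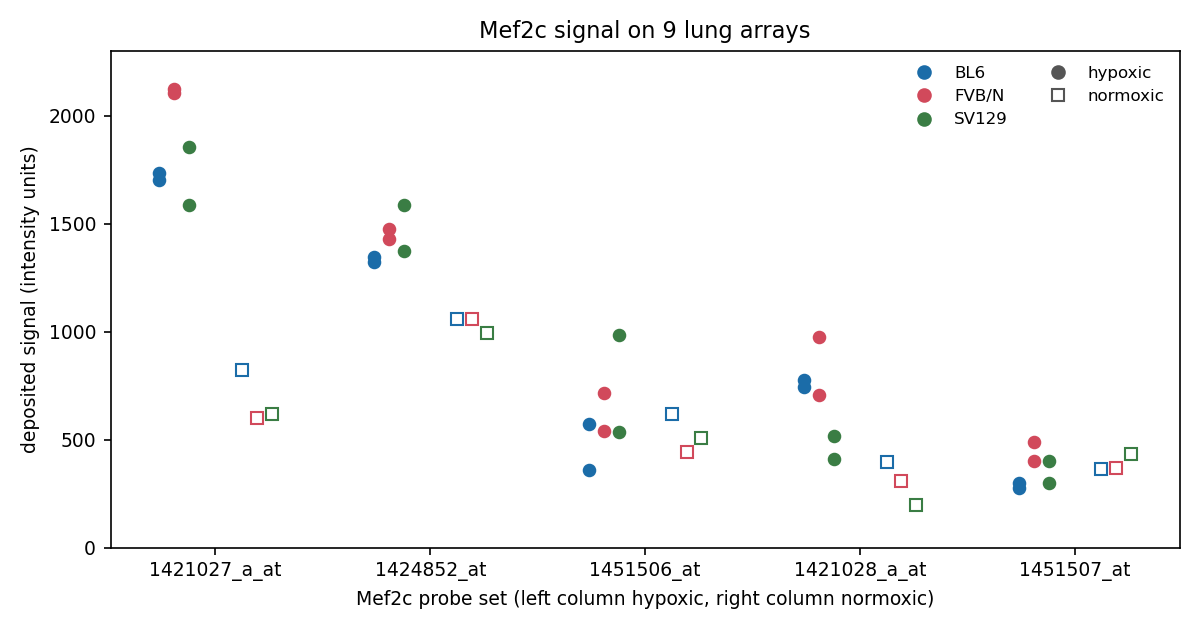
Deposited signal (intensity units, linear axis from 0) of the 5 Mef2c probe sets on each of 9 lung arrays; filled circles are hypoxic arrays, open squares normoxic arrays, and colours are strains. On 1421027_a_at the 6 hypoxic arrays lie between 1585 and 2123 units, all above the normoxic arrays at 602 to 822 units, while on 1451506_at and 1451507_at the pressures overlap.

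2 arrays carried transcripts of another organ. For 12 kidney marker genes the mean log2 level was 11.72 on array 2 of hypoxic BL6, 12.69 on the array of normoxic FVB/N, and between 5.96 and 6.58 on the other 7 arrays. The normoxic FVB/N array also carried fast skeletal muscle markers (Acta1, Tnni2 and others), at a mean log2 level of 10.88 over 8 genes, against 5.72 to 6.28 on the other 8 arrays. The 3 brown adipocyte markers Ucp1, Cidea and Elovl3 were dim on this array and on the others (mean log2 level 4.97, against 4.90 to 5.62). Without these 2 arrays the Mef2c difference on 1421027_a_at was 1.27 ± 0.178, and on 1421028_a_at it was 1.09 ± 0.228. Control transcripts of bacterial origin (bioB, bioC, bioD), added during target preparation, also split by pressure: of their 7 probe sets, 5 read higher and 2 read lower on every hypoxic array than on every normoxic array. Differences in array preparation and in pressure therefore cannot be told apart in the hypoxic against normoxic values given here. Their separate parts were not tested.

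Markers of the lung's own cell types were read on the same arrays. The mean log2 level of 12 endothelial markers (Pecam1, Cdh5, Kdr and others) ran from 12.04 to 12.66 on hypoxic arrays and from 11.79 to 12.41 on normoxic arrays. In limma's fit 1 of these 12 passed, Emcn, which encodes the endothelial sialomucin endomucin (log2 change 1.43 ± 0.114, adjusted p = 0.00621). Of all probe sets, 1.94% were called higher in hypoxic lung. The list went both ways: 7 of the 12 were above 0 (median 0.35), where 53.8% of all probe sets were. Cdh5 was the lowest at -0.61 ± 0.351 (adjusted p = 0.349). The 6 B cell markers measured ran from 8.50 to 9.09 on hypoxic arrays and from 8.31 to 9.0 on normoxic arrays, and the 7 smooth muscle markers from 10.19 to 10.68 and from 9.40 to 10.55 in the same order. The lowest level of all 3 lists was on the normoxic FVB/N array. The 4 alveolar type 2 markers, which define lung, were bright on every array (13.76 to 14.21 on hypoxic and 13.75 to 14.09 on normoxic arrays). Cardiomyocyte markers, 9 in all, ran from 9.76 to 11.24 on hypoxic arrays and from 10.58 to 11.36 on normoxic arrays. In limma's fit for hypoxia 0 of the 9 passed, and 0 were above 0 (median -0.37). Their lowest level was on hypoxic BL6 array 2, which carried kidney markers. The part of cell makeup in the Mef2c difference was not tested.

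Mef2a, a broadly expressed MEF2 factor that governs metabolic and structural genes of heart and skeletal muscle, was nominally higher in hypoxic lung on its brightest probe sets and did not pass the test. Probe set 1427185_at read 5680 and 6643 units in hypoxic BL6, 8955 and 6646 in hypoxic FVB/N, and 6944 and 7615 in hypoxic SV129 lung, against 4856, 3873 and 4974 units in normoxic BL6, FVB/N and SV129 lung. All 6 hypoxic arrays were above all 3 normoxic arrays, and the log2 difference was 0.61 ± 0.158 (adjusted p = 0.0689 in limma). This was the only 1 of the 12 tested probe sets outside Mef2c without overlap, against the 6.53% of all probe sets given above.

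Probe set 1452347_at of Mef2a read 3467 and 3338 units in hypoxic BL6, 4315 and 4252 in hypoxic FVB/N, and 2765 and 3177 in hypoxic SV129 lung, against 3112, 2540 and 1911 units in normoxic BL6, FVB/N and SV129 lung. Every hypoxic array was above the normoxic array of its own strain, as on 3920 (14.5%) of all probe sets, but the groups overlapped across strains (log2 difference 0.50 ± 0.138, adjusted p = 0.0811). The other 4 Mef2a probe sets gave log2 differences between -0.04 and 0.47, with limma's adjusted p between 0.393 and 0.943. When arrays were instead centred on their medians, both probe sets passed (0.71 ± 0.164, adjusted p = 0.0388, and 0.59 ± 0.140, adjusted p = 0.042). That scaling also moved the median over all probe sets to 0.11, against 0.04 after quantile normalization, and made 71.3% of all called probe sets higher in hypoxic lung, against 51.7%. Averaged over its 6 probe sets, Mef2a gave 0.34 on the log2 scale.

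Mef2d, another broadly expressed MEF2 factor, did not pass the test on any of its probe sets. Its brightest probe set, 1434487_at, read 1218 and 1512 units in hypoxic BL6, 1937 and 1773 in hypoxic FVB/N, and 2004 and 1793 in hypoxic SV129 lung, against 1754, 1253 and 1944 units in normoxic BL6, FVB/N and SV129 lung. The pressures overlapped fully, with a log2 difference of 0.02 ± 0.174 (adjusted p = 0.949 in limma). Its other probe sets, 1437300_at and 1421388_at, gave 0.18 ± 0.250 and -0.29 ± 0.170 (limma adjusted p = 0.714 and 0.347). On 1421388_at 1 of 6 hypoxic arrays exceeded the normoxic array of its strain. Mef2b, which is best known from germinal centre B cells, read 8.24 to 72.3 units in hypoxic lung and 54.7 to 107 units in normoxic lung. None of the 6 hypoxic arrays was above the normoxic array of its strain for Mef2b, but the probe set lay among the dimmest 40% and was not tested.

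The probe sets of Srf disagreed. Probe set 1418255_s_at read 771 and 643 units in hypoxic BL6, 743 and 664 in hypoxic FVB/N, and 991 and 1273 in hypoxic SV129 lung, against 540, 345 and 720 units in normoxic BL6, FVB/N and SV129 lung. Each hypoxic array exceeded the normoxic array of its strain, the log2 difference was 0.64 ± 0.163, and limma's adjusted p was 0.0644. Probe set 1418256_at went the other way without passing, at 156 to 318 units in hypoxic lung and 290 to 326 units in normoxic lung (-0.29 ± 0.216, adjusted p = 0.459), and 1 of 6 hypoxic arrays exceeded the normoxic array of its strain. Over the 9 arrays the Srf probe sets correlated at r = -0.44. The suffix of the first marks a design whose probes may match transcripts of other genes as well, so its gene is the less certain of the pair. The first passed with median centring (0.75 ± 0.166, adjusted p = 0.0350) and when the dimmest 60% were left out (adjusted p = 0.0477), and the mean of both probe sets gave 0.17.

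Myocd, the SRF coactivator of cardiac and smooth muscle, read 102 and 122 units in hypoxic BL6, 107 and 87.6 in hypoxic FVB/N, and 184 and 300 in hypoxic SV129 lung on probe set 1425978_at, against 106, 61.4 and 264 units in normoxic BL6, FVB/N and SV129 lung. The SV129 arrays stood above those of BL6 and FVB/N on this probe set, BL6 and FVB/N overlapped, and the pressures overlapped too (log2 difference between hypoxic and normoxic lung 0.25 ± 0.234, adjusted p = 0.570 in limma). Its second probe set, 1425808_a_at, read 2.76 to 55.2 units in hypoxic lung and 6.98 to 41.1 units in normoxic lung, among the dimmest 40%. In all, 0 of the 12 tested probe sets outside Mef2c passed limma's adjusted threshold for hypoxia, where 1016 (3.76%) of all 27022 did, and 3 of the 12 had an unadjusted p below 0.05. The share of all probe sets below 0.05 unadjusted was counted only for the interaction. The other unadjusted counts, here and below, thus have no background beside them.

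**Figure D2:**
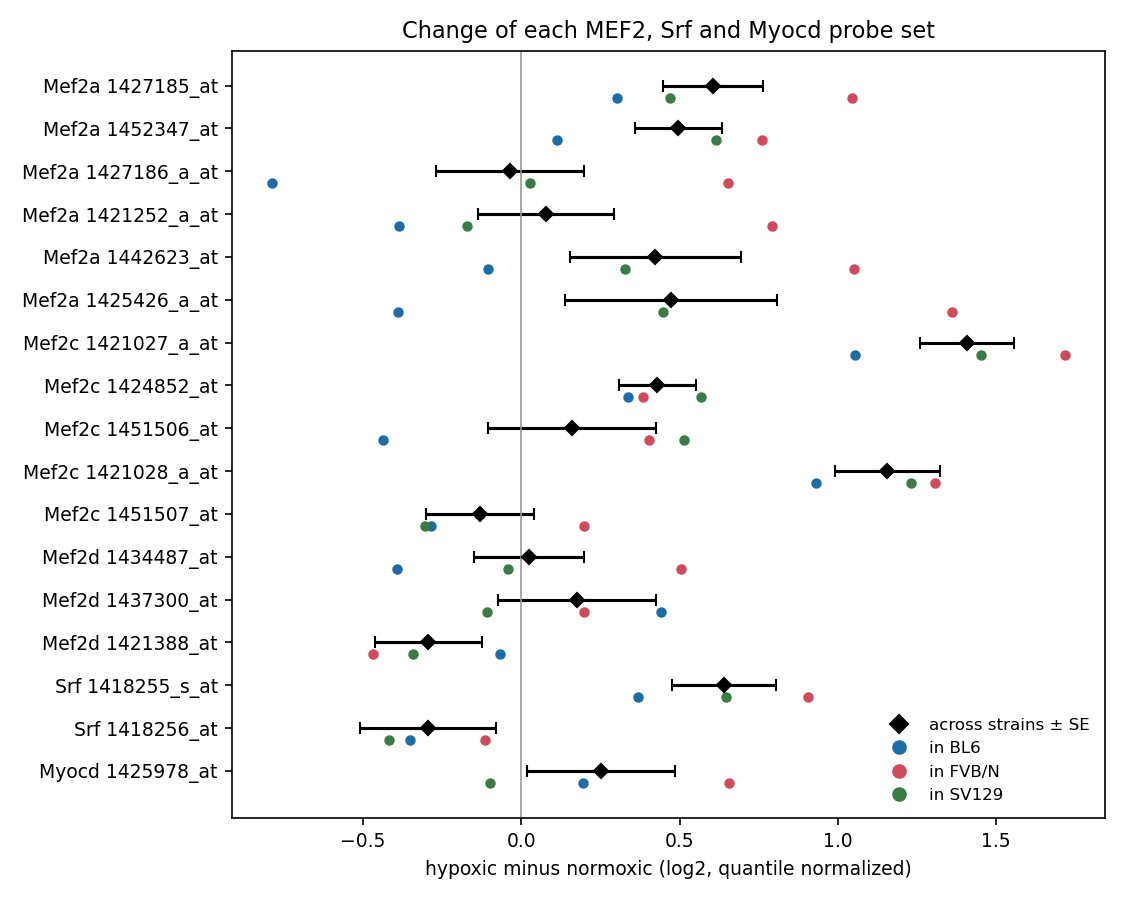
Log2 difference of hypoxic minus normoxic lung for the 17 MEF2, Srf and Myocd probe sets that entered the fit; black diamonds with bars give the value across strains ± SE and coloured points the value within each strain (2 hypoxic arrays and 1 normoxic array each). Mef2c 1421027_a_at (1.41) and 1421028_a_at (1.16) lie farthest to the right, and on all 6 Mef2a probe sets the FVB/N point lies right of those for BL6 and SV129. It does so too on the brightest probe sets of Mef2c, Mef2d, Srf and Myocd. All FVB/N points share the same 1 normoxic array.

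The series' title concerns strain-specific responses, so the change was also set out within each strain. Mef2c 1421027_a_at was higher in hypoxic lung by 1.05 ± 0.215 in BL6, 1.72 ± 0.215 in FVB/N and 1.45 ± 0.215 in SV129 on the log2 scale (SE from a fit with 6 groups, in which the lone normoxic arrays were assumed to vary like the hypoxic pairs). Limma's test of whether these changes differ among strains gave an adjusted p of 0.599, so no strain difference in the Mef2c change was shown. Probe set 1421028_a_at gave 0.93, 1.31 and 1.23 in BL6, FVB/N and SV129 (interaction adjusted p = 0.915).

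Among the 17 probe sets, the change varied most among strains on Mef2a 1427186_a_at and 1421252_a_at, again without passing. Probe set 1427186_a_at read 1052 and 1026 units in hypoxic BL6 lung against 1775 units in normoxic BL6 lung, and 1437 and 1442 units in hypoxic FVB/N lung against 869 units in normoxic FVB/N lung. In SV129 it read 1127 and 1481 units in hypoxic lung against 1277 units in normoxic lung. The log2 change was thus -0.79 ± 0.240 in BL6, 0.65 ± 0.240 in FVB/N and 0.03 ± 0.240 in SV129, with an interaction p of 0.00997 before and 0.247 after adjustment. The change was larger in FVB/N than in the other strains on all 6 Mef2a probe sets. That was not particular to Mef2a, as it was also largest in FVB/N on the brightest probe sets of Mef2c, Mef2d, Srf and Myocd. All of these FVB/N changes rest on the same 1 normoxic FVB/N array, which is one of those with kidney markers. The share of the kidney transcripts in them was not tested. How often the change was largest in FVB/N over all probe sets was not counted. Over the 17 probe sets, the interaction's adjusted p ran from 0.247 to 0.973, with 2 below 0.05 unadjusted. Across all 27022 probe sets limma called 0 (0%) for the interaction, and 3328 (12.3%) had an unadjusted p below 0.05.

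Between strains, with pressure in the fit, Myocd was lower in FVB/N than in SV129 lung. On 1425978_at its log2 level averaged 6.66 ± 0.415 in FVB/N and 8.02 ± 0.345 in SV129 (SD, n = 3 each). The difference was -1.36 ± 0.271 (2.57-fold lower in FVB/N, limma adjusted p = 0.0317), and the strains did not overlap. Against SV129, BL6 was lower as well, at 6.94 ± 0.206 and without overlap, but the difference of -1.08 ± 0.271 missed the threshold (adjusted p = 0.0824). BL6 and FVB/N differed by 0.28 ± 0.271 (adjusted p = 0.784). Both differences rest on the same 3 SV129 arrays. The FVB/N against SV129 call was lost in 6 of the 9 fits that left out 1 array (adjusted p up to 0.176, without the normoxic SV129 array) and held with hypoxic BL6 array 2, hypoxic SV129 array 2 or normoxic BL6 left out (0.0268 to 0.0495). Leaving out the pair of arrays that carried kidney markers also ended it (-1.19 ± 0.307, adjusted p = 0.112) as did keeping all dim probe sets (adjusted p = 0.0538). The share of all probe sets without overlap was not counted for any pair of strains. FVB/N and SV129 did not overlap on the uncalled Srf probe set 1418256_at either (limma adjusted p = 0.541).

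Cell markers also differed between strains. The mean log2 level of 8 macrophage markers was 9.95 to 10.25 on BL6, 8.85 to 9.02 on FVB/N and 10.23 to 10.41 on SV129 arrays. In limma's fit 5 of the 8 were higher in BL6 than in FVB/N (median 0.95), where 1.52% of all probe sets were. Another comparison, FVB/N minus SV129, had 3 of the 8 lower in FVB/N (median -0.67), where 1.83% of all probe sets were. Among them was the scavenger receptor gene Marco at -4.78 ± 0.322 (adjusted p = 0.000147). Marco was also the 1 of 8 lower in BL6 than in SV129 (-2.27 ± 0.322, adjusted p = 0.00764). There the list's median was -0.02, and 1.16% of all probe sets were lower in BL6. The 7 smooth muscle markers had medians of -0.51 for FVB/N minus SV129 and -0.14 for BL6 minus SV129, and 0 of 7 passed in either (2 unadjusted, Acta2 and Tagln, and 0 unadjusted). Their mean level was 10.19 to 10.53 on BL6, 9.40 to 10.55 on FVB/N and 10.55 to 10.68 on SV129 arrays. Of 9 cardiomyocyte markers, 0 passed between any strains (0 unadjusted). The part of these cell types in the strain differences of Myocd and of the genes below was not tested.

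Of the other members, the lowest adjusted values between strains belonged to Srf and Mef2c. Srf 1418255_s_at was lower in FVB/N than in SV129, at a log2 level of 9.17 ± 0.530 in FVB/N and 9.95 ± 0.414 in SV129 (difference -0.78 ± 0.188, adjusted p = 0.0681 in limma), without passing. Mef2c 1421028_a_at read higher in BL6 than in SV129 (0.76 ± 0.191, adjusted p = 0.0839) and higher in FVB/N than in SV129 (0.77 ± 0.191, adjusted p = 0.0741), also without passing, while its brightest probe set gave differences of -0.06 to 0.20 (adjusted p = 0.613 to 0.946). In limma's fits, 1 of 17 member probe sets passed for FVB/N minus SV129 (5 unadjusted), where 780 (2.89%) of all probe sets did and 1.83% were lower in FVB/N. For BL6 minus SV129, 0 of 17 passed (4 unadjusted), against 678 (2.51%), and for BL6 minus FVB/N, 0 of 17 passed (2 unadjusted), against 560 (2.07%).

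**Figure D3:**
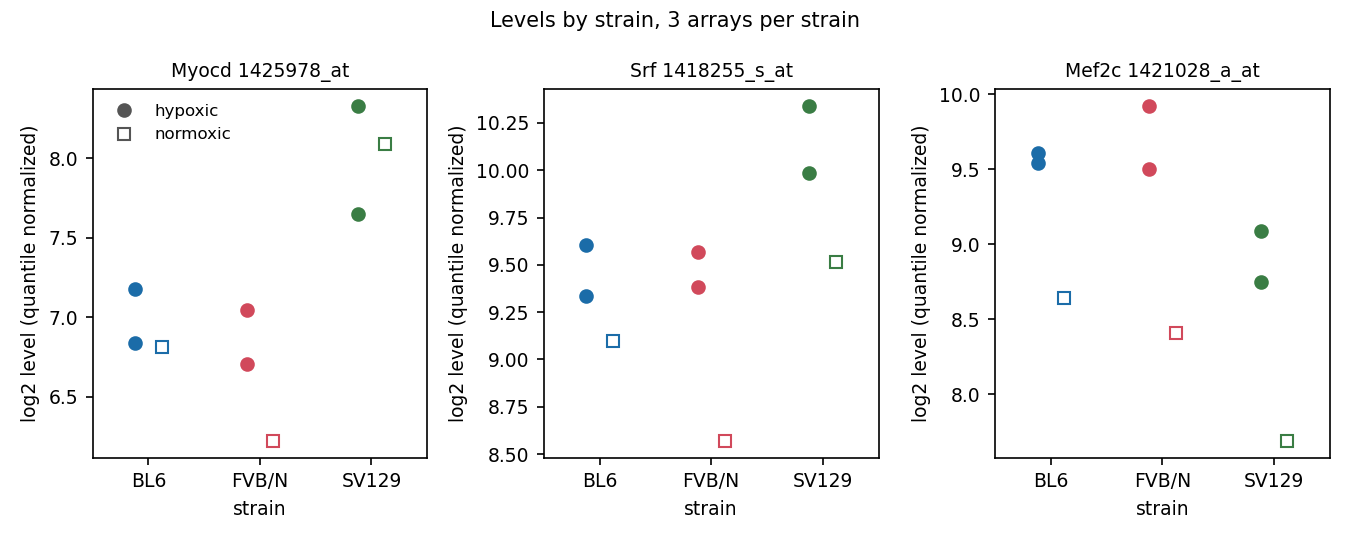
Normalized log2 level of Myocd 1425978_at, Srf 1418255_s_at and Mef2c 1421028_a_at by strain, with 2 hypoxic arrays (filled circles) and 1 normoxic array (open squares) per strain. All 3 SV129 arrays lie above all FVB/N and BL6 arrays for Myocd, whereas for Mef2c the normoxic array is the lowest in each strain.

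Genes known to act on these factors or to be driven by them were then read through the brightest probe set of each. The lists were compiled from textbook knowledge, but with earlier results of these data known, so they are not independent of the data. Of all 27022 probe sets, 1.94% rose and 1.82% fell. Of 16 regulators of MEF2 (deacetylases, calcineurin subunits, kinases), 0 rose and 1 fell in hypoxic lung. The median log2 change was 0.10, where the median over all probe sets was 0.04, and 9 of 16 were above 0, where 53.8% of all probe sets were. The gene that fell was Camk2d, a calcium/calmodulin kinase that phosphorylates class II deacetylases. It read 280 and 291 units in hypoxic BL6, 244 and 363 in hypoxic FVB/N, and 433 and 350 in hypoxic SV129 lung, against 936, 371 and 876 units in normoxic BL6, FVB/N and SV129 lung. The drop was 2.07-fold (log2 change -1.05 ± 0.239, limma adjusted p = 0.0477), with normoxic FVB/N inside the hypoxic range. The call was lost in 8 of the 9 fits without 1 array, and held with normoxic FVB/N left out (adjusted p = 0.0150). It was also lost with median centring, on the deposited scaling, with a pseudocount of 64, with no filter, without the eBayes trend and without the kidney-marker arrays (adjusted p from 0.0502 to 0.0658).

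Of 13 tested cofactors and regulators of SRF, 0 passed in limma's fit (5 unadjusted), and the median change was -0.01. The lowest p belonged to Hopx, a homeodomain protein that restrains SRF and marks alveolar type 1 cells (0.35 ± 0.0891, adjusted p = 0.0663), and next to the LIM protein Csrp1 (0.46 ± 0.152, adjusted p = 0.124). Hopx gave 0.66 ± 0.0952 on the deposited scaling without quantile normalization (adjusted p = 0.0173) and 0.75 ± 0.113 with median centring (adjusted p = 0.0136), so its change moved by more than 1.5 times with the scaling. Mrtfa and Mrtfb, the coactivators that link SRF to actin, gave 0.16 ± 0.209 and 0.21 ± 0.186 (adjusted p = 0.701 and 0.553). The ternary complex factor genes Elk1, Elk3 and Elk4 gave log2 changes of 0.23, -0.11 and 0.32, and none of these passed.

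Of 13 tested MEF2 target genes, 1 rose and 0 fell, and 3 were above 0 (median -0.47). The gene that rose was Klf2, the flow-responsive endothelial factor driven by MEF2 factors. Klf2 read 8732 and 8252 units in hypoxic BL6, 6529 and 6029 in hypoxic FVB/N, and 13476 and 7657 in hypoxic SV129 lung, against 5476, 3454 and 5392 units in normoxic BL6, FVB/N and SV129 lung. No hypoxic array was below any normoxic array, and the log2 change was 0.77 ± 0.163 (1.71-fold, limma adjusted p = 0.0396). The call was lost in 7 of the 9 fits without 1 array, all but those lacking a hypoxic SV129 array (adjusted p up to 0.155), and when both kidney-marker arrays were left out (0.69, adjusted p = 0.177), as well as with no filter (0.0580) and without the eBayes trend (0.0714). The muscle targets Ckm and Mb, muscle creatine kinase and myoglobin, gave -1.74 ± 0.594 and -1.26 ± 0.477 without passing, and the array with skeletal muscle markers is normoxic. Without the arrays with kidney markers the list's median was -0.27.

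Of 20 targets of SRF with myocardin-related factors, largely contractile and cytoskeletal genes, 1 rose and 0 fell, and 18 were above 0 (median 0.30). Tpm1, which encodes a tropomyosin that covers actin filaments, read 6003 and 8715 units in hypoxic BL6, 6230 and 6629 in hypoxic FVB/N, and 4989 and 5654 in hypoxic SV129 lung, against 4880, 4618 and 3250 units in normoxic BL6, FVB/N and SV129 lung. On the deposited scale all hypoxic arrays lay above all normoxic arrays. After normalization hypoxic SV129 array 2 (log2 level 12.28) fell just below normoxic BL6 (12.29), so the tested values overlapped. The log2 change was 0.58 ± 0.131 (1.5-fold, limma adjusted p = 0.0467). That call was lost in 8 of the 9 fits without 1 array (adjusted p up to 0.182) and held with hypoxic BL6 array 2 left out (0.0440). It was lost too on the deposited scaling (adjusted p = 0.0503), with no filter (0.0719) and without the eBayes trend (0.0897). The smooth muscle genes Tagln and Myh11 gave 0.60 ± 0.162 and 0.47 ± 0.237 (adjusted p = 0.0745 and 0.282). In a fit lacking the kidney-marker arrays, 14 of 20 were above 0 with a median of 0.14, and Tpm1 stood at 0.72 ± 0.126 at the edge of the threshold (adjusted p = 0.05). With median centring 4 of the 20 passed, Tpm1, Tagln, Actb and Actg1, and the list's median was 0.47. The smooth muscle markers, 0 of 7 of which passed, had their lowest level on the normoxic FVB/N array, and 7 of the 20 targets are themselves on that marker list.

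**Figure D4:**
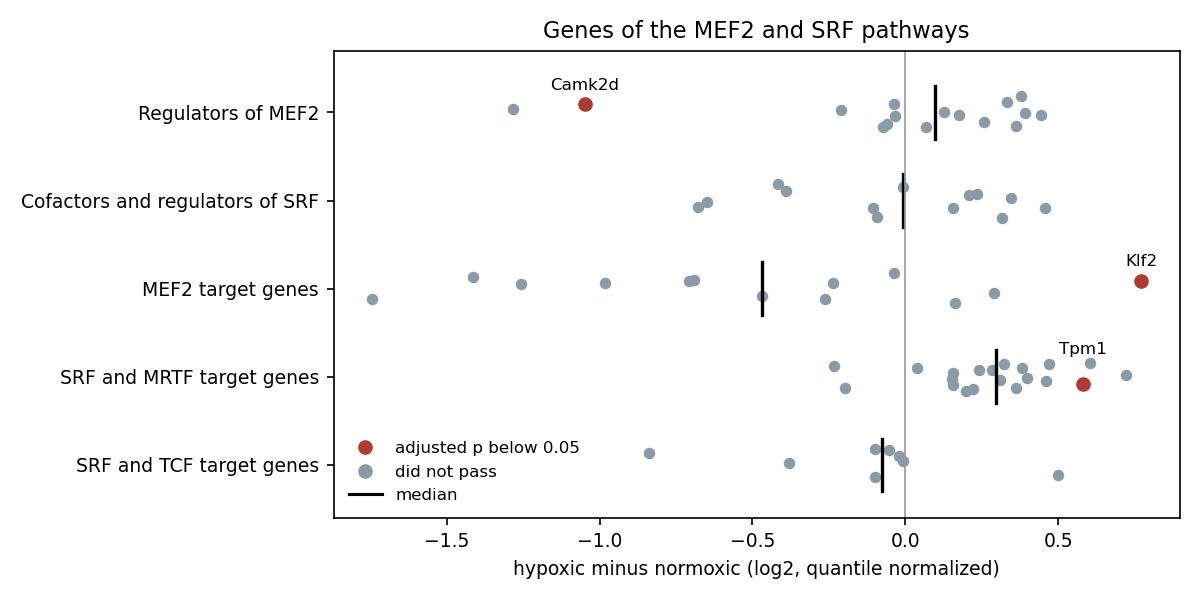
Log2 change (hypoxic minus normoxic lung) of each tested gene in 5 lists, one point per gene at its brightest probe set, with the list's median as a black line. Camk2d (-1.05), Klf2 (0.77) and Tpm1 (0.58) are the genes with an adjusted p below 0.05, and most SRF and MRTF targets lie right of 0.

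Of the targets of SRF with ternary complex factors, the immediate early genes, Fos, Egr1 and Egr2 were lower in BL6 and in FVB/N than in SV129 lung. For hypoxia 0 of 8 passed in limma's fit (1 unadjusted, Egr3 at -0.84 ± 0.266, adjusted p = 0.111), with a median of -0.08, and Egr2 gave 0.50 ± 0.261 (adjusted p = 0.299). Against SV129, BL6 was lower for 3 of 8 (median -1.92, where the median over all probe sets was -0.03) and FVB/N was lower for 3 of 8 (median -1.34, against -0.03). Both comparisons share the SV129 arrays, Fosb, Egr3, Junb, Ier2 and Mcl1 did not pass in either, and all strain values of list genes named here were chosen after they had been seen. Of all probe sets, 1.16% were lower in BL6 than in SV129 and 1.83% lower in FVB/N than in SV129. Between BL6 and FVB/N, 1 of 8 passed, Egr1, lower in BL6 (-2.13 ± 0.312, adjusted p = 0.00796), where 0.548% of all probe sets were lower.

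Egr1, a zinc finger factor induced within minutes of growth factor or stress signals, read 1593 and 1320 units in hypoxic BL6, 3802 and 6762 in hypoxic FVB/N, and 21461 and 27093 in hypoxic SV129 lung, against 1304, 9953 and 12366 units in normoxic BL6, FVB/N and SV129 lung. The 3 BL6 arrays were lowest and the 3 SV129 arrays highest, with FVB/N between them without overlap. The BL6 minus SV129 difference was -3.70 ± 0.312 (13.0-fold lower in BL6, limma adjusted p = 0.000584). Fos, a subunit of AP-1, read 2445 and 2330 units in hypoxic BL6, 1689 and 5809 in hypoxic FVB/N, and 20565 and 20100 in hypoxic SV129 lung, against 1855, 5561 and 12660 units in normoxic BL6, FVB/N and SV129 lung. SV129 again stood apart (BL6 minus SV129 -2.92 ± 0.416, adjusted p = 0.00773, and FVB/N minus SV129 -2.18 ± 0.416, adjusted p = 0.0262). The BL6 minus SV129 calls of Egr1, Egr2 (-2.48 ± 0.302, adjusted p = 0.00360) and Fos held in each of the 9 fits without 1 array, whereas for FVB/N minus SV129 those of Egr1, Egr2 and Fos were lost in 5, 2 and 4 of the 9. The FVB/N minus SV129 call of Egr1 was also lost with median centring, on the deposited scaling and without the eBayes trend.

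Few genes of the other lists passed between strains. Nr4a1, a MEF2 target and orphan nuclear receptor, was lower in BL6 than in SV129 (-2.27 ± 0.391, limma adjusted p = 0.0176) and lower in FVB/N than in SV129 (-2.01 ± 0.391, adjusted p = 0.0287), calls lost in 5 and 4 of the 9 fits without 1 array. Ccn1, a matricellular protein induced through SRF, was lower in BL6 than in SV129 (-2.11 ± 0.324, adjusted p = 0.0110, lost in 3 of 9). Tgfb1i1, a focal adhesion protein of smooth muscle, was higher in BL6 than in FVB/N (0.92 ± 0.166, adjusted p = 0.0233, lost in 4 of 9 and without the kidney-marker arrays), where 1.52% of all probe sets were higher. Of the 20 targets of SRF with myocardin-related factors, 5 were above 0 for BL6 minus SV129 and 2 for FVB/N minus SV129, with medians of -0.23 and -0.43. The medians over all probe sets were -0.03 in both comparisons. What share of all probe sets was above 0 was not counted between strains. Of the MEF2 regulators and SRF cofactors, 0 of 16 and 0 of 13 passed in any strain comparison in limma's fit, with 1 or 2 unadjusted in each.

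**Figure D5:**
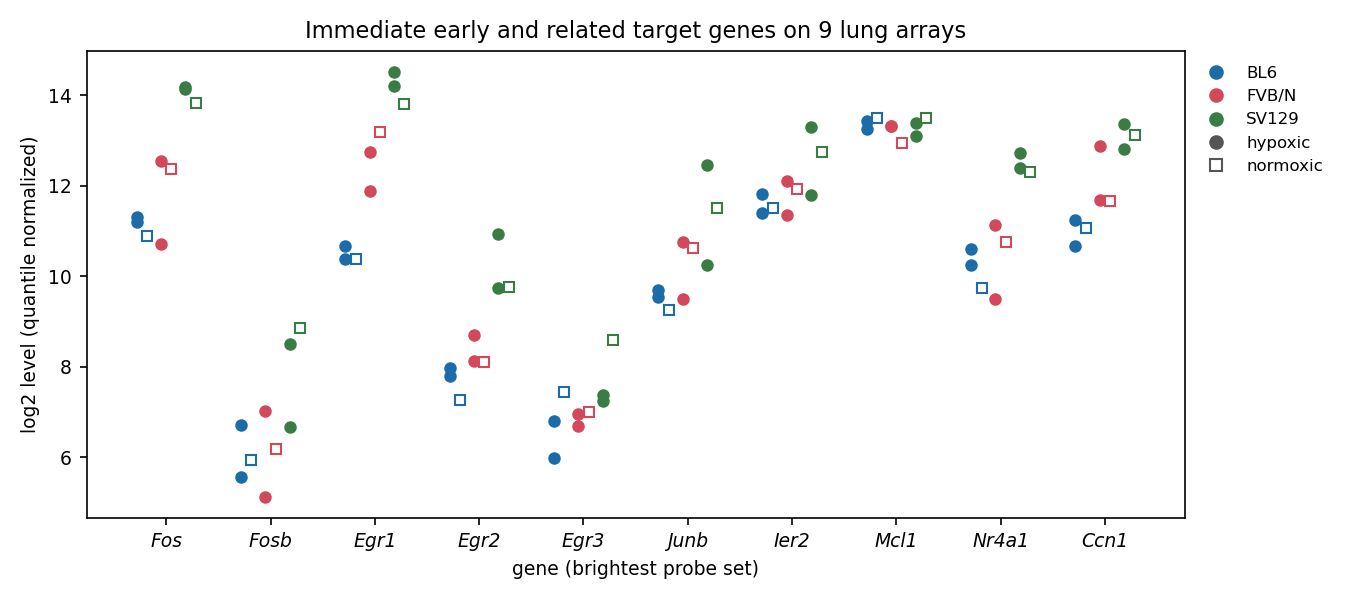
Normalized log2 level of the 8 immediate early targets of SRF and of Nr4a1 and Ccn1 on 9 lung arrays, at the brightest probe set of each; filled circles are hypoxic arrays, open squares normoxic arrays, and colours are strains. For Egr1 and Fos the 3 SV129 arrays stand highest at either pressure, and for Mcl1 the strains overlap.

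Among 12890 other genes read through their brightest probe set, those whose 9 log2 levels correlated most closely with Mef2c 1421027_a_at were Nipbl (r = 0.985), which loads cohesin onto chromosomes, the ubiquitin ligase Pja2 (0.984), Nol8 (0.981), Nhlrc2 (0.969) and the aminopeptidase Npepps (0.966). Nipbl averaged a log2 level of 10.98 in hypoxic lung and 9.20 in normoxic lung, and Pja2 averaged 11.96 and 10.69 in the same order. The nearest to Mef2a 1427185_at were Hoxb4 (0.986) and Klc1 (0.982), to Mef2d Trak1 (0.976) and Arfgef3 (0.964), to Srf Dclre1a (0.987) and Esyt3 (0.975), and to Myocd Epha3 (0.979) and Tbl1x (0.964). Between members, Mef2a 1452347_at and Mef2c 1421028_a_at correlated at r = 0.93, and Mef2a 1427185_at and Mef2c 1421027_a_at at r = 0.86. All of these are over the same 9 arrays, which share their split by pressure, their strains and the arrays with kidney markers, and are given as a description.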

How the data were processed

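RNA of whole right lung was hybridised to 1-colour biotin arrays, per the labels' protocols. Each deposited value is an intensity on a linear scale for 1 probe set on 1 array. Which software made them is not given in the sources used. As the values show, the authors had scaled each array to a trimmed mean of 500, and array medians ran from 92.3 to 110.9. Another 12 arrays named in the series' design text as technically difficult were not analysed here.

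From 45101 probe sets, 64 controls were left out. Signals were transformed as log2(signal + 16), which understates changes of dim probe sets, and quantile normalized. The dimmest 40% by mean were dropped, leaving 27022. Of the 45037 probe sets, 34945 had 1 symbol in the platform annotation, 932 several and 9160 none. The fits used limma 3.58.1 under R 4.3.3 (eBayes with an intensity trend, Benjamini-Hochberg threshold 0.05 over all probe sets). Strain and condition were additive (5 residual degrees of freedom, prior 4.14), and the interaction came from 6 groups (3 residual). The scripts were tested on simulated data.

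The members and lists were chosen with earlier results of these data known. All member probe sets were described. From each list the genes past the hypoxia threshold, or otherwise the 2 with the smallest p, were named, other list genes were named after their values were seen, and the 5 (Mef2c) or 2 genes most alike by Pearson r were given. Array numbers were not used to pair samples in the main fits. The deviations of the hypoxic arrays numbered 2 correlated at -0.03, -0.04 and -0.19 between strains. These values cannot show whether arrays of the same number share a batch, and the labels do not say what the numbers mean. Alternatives were other scalings, pseudocounts, filters, eBayes options, models, probe set rules and left-out arrays. Promoter windows came from RefSeq (GRCm38.p6).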

Additional observations from a re-analysis of the deposited data

How the results depend on the processing

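Mef2c 1421027_a_at was higher in hypoxic lung under every alternative run, at 1.25 to 1.59 with 1 array left out and 0.60 as the mean of all its probe sets. The number of called probe sets was less stable. For hypoxia, 1016 became 582 with no filter, 657 without the eBayes trend, 228 without both arrays with kidney markers, 2054 with the kidney level as a covariate, 1606 as the mean of within-strain changes, and 3 to 1390 with 1 array left out (3 without normoxic SV129, 11 without normoxic BL6, 32 without hypoxic BL6 array 5). Of the 12 member probe sets tested for hypoxia, 3 (of Mef2a and Srf) passed with median centring, 1 (Srf 1418255_s_at) with the 60% filter, 1 (Mef2a 1427185_at) with the kidney covariate, 2 (Mef2a 1427185_at and 1452347_at) as the mean of within-strain changes, and 0 with any 1 array left out. The interaction gave 7 calls with a pseudocount of 64 and 0 to 607 with 1 hypoxic array left out; it could not be fitted without a normoxic array.

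Between strains, BL6 minus FVB/N gave 369 calls with the 60% filter, 323 without both kidney arrays and 251 to 748 with 1 array left out, BL6 minus SV129 201 to 1227 and FVB/N minus SV129 321 to 771. With the array number as a replicate block these counts were 187, 299 and 181. The count of member probe sets called for FVB/N minus SV129 was 0 with no filter, with the 60% filter (where Myocd was not tested), without the kidney arrays and under the block, and 0 or 1 with 1 array left out. For BL6 minus SV129 it was 0 to 1. No paired analysis was possible for hypoxia because the hypoxic arrays are numbered 2, 5 and 6 and the normoxic arrays 1.

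Directions turned only for differences that did not pass or, for a Mef2c probe set, were not tested. On that probe set, 1451506_at, the hypoxia difference (0.16) gave -0.017 to 0.46 with 1 array left out and reached -0.028 under another alternative. For hypoxia, Mef2a 1427186_a_at (-0.04) gave 0.078 with median centring and -0.38 to 0.34 with 1 array left out. Mef2a 1421252_a_at (0.08) gave -0.28 to 0.31 with 1 array left out, -0.285 without the kidney arrays and -0.020 with the covariate. Mef2d 1434487_at (0.02) gave -0.22 to 0.23 with 1 array left out, -0.13 without the kidney arrays, -0.075 with the covariate and -0.031 over all its probe sets. For BL6 minus FVB/N with 1 array left out, Mef2a 1427185_at gave -0.30 to 0.11, Mef2c 1421027_a_at -0.235 to 0.020 and Mef2d 1434487_at -0.37 to 0.023. Under the replicate block Mef2c 1421027_a_at gave 0.0076, and Srf 1418255_s_at gave -0.021 without the kidney arrays and -0.14 over both probe sets. For BL6 minus SV129, Mef2a 1427185_at gave 0.23 over all its probe sets and Mef2c 1421027_a_at -0.038 to 0.22 with 1 array left out. For FVB/N minus SV129, Mef2a 1427185_at gave 0.020 with median centring, -0.26 to 0.15 with 1 array left out, 0.13 without the kidney arrays and 0.32 over all its probe sets, and Mef2d 1434487_at gave -0.35 to 0.0073 with 1 array left out and 0.090 over all its probe sets. The causes were not tested. Dim probe sets (Mef2b, Myocd) have the least signal over background.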
